A study of Mus musculus with 12 samples.

Results

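Kainate receptors and delta receptors are families of ionotropic glutamate receptor subunits, and 8 of their genes were followed through the whole brain of Slc6a20a mutant mice. The genes were chosen by symbol and not by measured value, although earlier results of these data were known by then. All 8 were found among the 19775 genes of the table. They comprised the low-affinity kainate subunits Grik1, Grik2 and Grik3, the high-affinity subunits Grik4 and Grik5, the auxiliary proteins Neto1 and Neto2, and the delta subunit Grid1. Slc6a20a encodes a proline and glycine transporter, and the study compared wild-type (WT), heterozygous (Slc6a20a+/-, HT) and homozygous mutant (Slc6a20a-/-, HM) mice, with 4 mice per genotype. In the mutant allele exon 3 of Slc6a20a is deleted, and the mice came from crosses of heterozygous parents. All 12 were males of strain C57BL/6N at about postnatal day 120, and the RNA of each was taken from its whole brain. No further allele or agent was given for any group.

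A kainate receptor is a cation channel built from 4 Grik subunits around a central pore. Grik1, Grik2 and Grik3 can form channels by themselves, whereas Grik4 and Grik5 bind glutamate and kainate tightly but need a low-affinity subunit to reach the membrane and work. Neto1 and Neto2 are transmembrane proteins that bind these channels, slow their gating and help place them at synapses. Delta receptors resemble the other subunits in sequence, yet act mostly as adhesion molecules, binding secreted cerebellins in the synaptic cleft.

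All of these subunits have a strongly conserved helix that lines the channel. The coding bases there show how alike, at that place, the transcripts are that the reads had to tell apart. The 60 coding bases below surround the longest run of bases shared by any pair of the 8 coding sequences, 38 bases between Grik3 and Grik5. They were read from the transcripts of the GENCODE M21 annotation on GRCm38, from 5′ to 3′ on the coding strand. Capitals mark the 41 bases that are identical in all 5 Grik genes. In Grid1, which was added for comparison, capitals mark those of the 41 that it shares.

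Grik1: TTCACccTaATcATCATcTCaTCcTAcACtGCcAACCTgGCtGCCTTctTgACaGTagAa
Grik2: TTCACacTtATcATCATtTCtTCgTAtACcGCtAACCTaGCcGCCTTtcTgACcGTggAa
Grik3: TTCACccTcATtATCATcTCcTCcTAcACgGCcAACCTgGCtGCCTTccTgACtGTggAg
Grik4: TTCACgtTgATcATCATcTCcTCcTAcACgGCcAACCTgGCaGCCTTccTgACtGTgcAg
Grik5: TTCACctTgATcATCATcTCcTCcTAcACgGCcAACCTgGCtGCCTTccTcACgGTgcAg
Grid1: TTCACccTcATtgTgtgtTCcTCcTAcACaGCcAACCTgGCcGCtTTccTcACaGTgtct

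Each stretch lies within a single coding exon. That of Grik1 is at chr16:87935997-87936056 on the minus strand, in exon 13 of the 17 exons of its longest transcript. That of Grik2 is at chr10:49240678-49240737 on the minus strand, in exon 14 of 17. That of Grik3 is at chr4:125694021-125694080 on the plus strand, in exon 13 of 16. Those of the high-affinity genes are at chr9:42543857-42543916 for Grik4, in exon 17 of 21, and at chr7:25015907-25015966 for Grik5, in exon 16 of 20, both on the minus strand. That of Grid1 is at chr14:35452320-35452379 on the plus strand, in exon 12 of 16. Against Grik3, the identity was 90.0% for Grik4, 90.0% for Grik5, 86.7% for Grik1, 78.3% for Grid1 and 76.7% for Grik2.

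Few longer stretches were shared. Of the windows of 31 bases in the transcripts of each gene, between 0.016% in Neto2 and 2.57% in Grid1 also occurred in a transcript of another gene. Of the 8882 windows of Grik3, 42 also occurred in Grid1, on either strand, and their place in the transcripts was not examined. The coding sequences of Neto1 and Neto2 shared no run longer than 22 bases, and the median over the 28 pairs of genes was 14.5 bases. Exons of 4 of the genes overlapped those of another annotated gene by 20 to 219 bp. The largest overlap was that of Neto1 with AC113599.1 on the opposite strand. The kit named for the libraries does not mark strand, so reads from those 219 bp could not be assigned to one of the genes.

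The values are read estimates per gene that the authors scaled by the size factor of each library, and they are called normalized counts here. They summed to between 33285000 and 33748600 per mouse, and the 8 genes made up 0.0689 to 0.0751% of the sum. Sums of scaled values do not give the sequencing depth, so only the spread between mice was available as error. Slc6a20a itself followed the labels, and its mean ± SD over 4 mice was 679 ± 70.1 normalized counts for WT, 345 ± 29.1 for HT and 64.5 ± 9.9 for HM. Of the WT mice, WT1 stood apart for the genes described here. It had the lowest WT value for 7 of the 8 genes and the highest for Grik5, and the differences from WT are given with and without it. HM3 had the lowest HM value for 5 of the 8 genes and the highest for 3. The animal numbers of WT1 and HM3 in the column headings share the start 274. Each was highest in its genotype for Grik5 and lowest for Grik1, Grik2, Grik3, Neto1 and Neto2. The part of the shared start in these values was not tested. Of 14 lists of marker genes for brain cell types and adjoining tissues, with 57 of 58 listed genes analysed, none had a marker at 0. By an exact permutation test of the mean level of a list, the lowest p in a comparison with WT was 0.0571, for erythrocytes in HT and for the olfactory bulb in HM. Between HM and HT mice 2 lists, olfactory bulb and microglia, reached 0.0286, the smallest exact permutation p possible here. The lowest BH-adjusted permutation p over all 42 tests was 0.514. The 4 olfactory bulb markers, some of which the study had picked from these libraries, summed to 491 to 744 normalized counts for WT, 456 to 582 for HT and 726 to 1226 for HM. The 4 erythrocyte markers, all haemoglobin genes, had unadjusted p under 0.05 (limma) and lower values in HT than in WT, with a median log2 fold change of -0.79, and 0 passed the adjusted threshold. They summed to 7653 to 21786 normalized counts for WT, 6422 to 8618 for HT and 5814 to 28729 for HM. The 3 microglial markers summed to 2091 to 2675 for WT, 2330.1 to 2590.3 for HT and 2113 to 2218 for HM. All 4 olfactory bulb markers were higher in HM, with a median log2 fold change of 0.90 against WT and 1.26 against HT. All 4 erythrocyte markers were higher in HM than in HT (median 1.00). Each had an unadjusted p under 0.05 (limma). All 5 choroid plexus markers were lower in HM than in WT (median -0.51), 3 with such a p. None passed the adjusted threshold. Such a p was found for 6.42% of all genes in HT against WT, 6.99% in HM against WT and 3.74% in HM against HT.

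All 8 genes were well above the limit for testing, a mean of 10 normalized counts, in every mouse. To compare genes, normalized counts were divided by the length of the longest coding transcript in kb. On this scale Grik5 had the highest level, with a mean of 1995 normalized counts per kb over the 12 mice and a range from 1911 to 2067. Grik3 followed at 492 per kb (417 to 533), then Neto1 at 452 (405 to 496), Grid1 at 403 (359.6 to 444) and Neto2 at 385 (355 to 411). Grik2 stood at 289 per kb (270.2 to 309.9). The lowest levels were those of Grik4 at 171 per kb (157 to 192) and Grik1 at 153 (142 to 182).

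The gap between Grik5 and Grik3, that between Neto2 and Grik2, and that between Grik2 and Grik4 exceeded the ranges over mice. Other neighbours in the order overlapped in range, although Grik3 was above Neto1 in each of the 12 mice, Neto1 above Grid1 in 11, Grid1 above Neto2 in 10 and Grik4 above Grik1 in 11. The place of Grik2 depended on the length used. The median of its basic coding transcripts is 3.164 kb, against 9.427 kb for the longest, and division by the median put Grik2 second at 862 per kb.

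**Figure D1:**
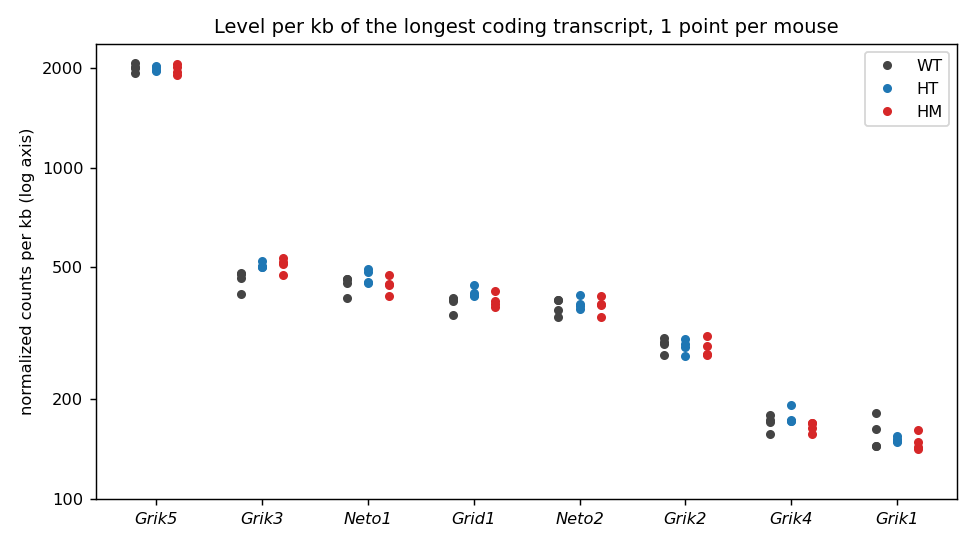
Level of each gene per kb of its longest coding transcript (y axis, normalized counts per kb, log axis), with 1 point per mouse and the genotypes side by side. Grik5, with a mean of 1995 per kb, lies clear of all others, and genotypes overlap at every gene except for Grik3 and Grid1 between WT and HT and Grik4 between HT and HM.

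Among the low-affinity subunits, Grik3 was the gene that differed most from WT. In WT mice Grik3 had 3741, 4312, 4298 and 4163 normalized counts. HT mice had 4496, 4514, 4516 and 4699. HM mice had 4652, 4785, 4248 and 4590.1. Every HT mouse lay above every WT mouse, with WT1 the lowest of the 12. In HM mice, the third mouse fell between WT mice, and the others were above all of them. The means were 4128 ± 267 for WT, 4556 ± 95.5 for HT and 4569 ± 229 for HM (SD, n = 4).

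The log2 fold change of Grik3 was 0.14 in HT mice (SE 0.05, 95% confidence interval 0.04 to 0.25), or 10.5% higher. In limma, a linear model fitted to log2(normalized count + 1) of all genes, its unadjusted p was 0.0105, and its Benjamini-Hochberg (BH) adjusted p over the 18004 genes tested was 0.768. In HM mice the log2 fold change of Grik3 was 0.15 (SE 0.05, interval 0.03 to 0.26), or 10.7% higher, with an unadjusted p of 0.0161 and an adjusted p of 0.664 (limma, BH). Neither passed the threshold of 0.05 on the adjusted p. The two-sided exact permutation test of Grik3 gave p = 0.0286 for HT, the smallest that 4 mice against 4 allow, and 0.0857 for HM. Both comparisons share the WT mice, so the HM values are no second test of the HT values. HM mice differed from HT mice in Grik3 by 0.0029 on the log2 scale, with an interval of -0.08 to 0.09.

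Part of the difference in Grik3 came with WT1. Without it the WT mean was 4258 ± 82.4 (n = 3), and the log2 fold change of Grik3 was 0.10 in HT (limma, unadjusted p = 0.0230) and 0.10 in HM (unadjusted p = 0.0429). Column headings carry animal numbers with 4 different starts, and what a shared start stands for was not stated. Within a number start, Grik3 differed by 0.18 (HM against WT, start 274), 0.06 (HT against WT, start 276), 0.09 (HM against WT, start 276) and 0.12 (HT against WT, start 278) on the log2 scale. These within-start differences rest on 1 or 2 mice a side and have no test. That of start 274 is HM3 against WT1, so it is not free of WT1. Markers of the dentate gyrus, where Grik3 is known to be abundant, were all 5 analysed. Their sum lay between 1587 and 1960.5 normalized counts for WT, 1805 and 2011 for HT, and 1708 and 2135 for HM, and their mean level gave an exact permutation p of 0.457 for HT against WT and 0.0857 for HM against WT. Their part in the Grik3 values was not tested, nor was that of the erythrocyte markers, which were lower in HT. The part of the olfactory bulb markers, higher in HM, and of the choroid plexus markers, lower in HM, was also not tested. In whole brain RNA, fewer cells that carry a transcript and less of it per cell cannot be told apart.

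Grik1 and Grik2 did not pass the test in either mutant. Grik1, the subunit with the lowest level per length, had 528, 592, 664 and 529.6 normalized counts for WT, 554, 546, 565 and 543 for HT, and 541, 525, 518 and 589 for HM. The WT mice spread more widely than the HT mice, and the groups overlapped. Grik1 had a log2 fold change of -0.06 in HT (interval -0.23 to 0.11) and -0.09 in HM (interval -0.26 to 0.09), and without WT1 these were -0.10 and -0.13.

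Grik2, the principal partner of the high-affinity subunits in much of the brain, had 2560.0, 2803, 2882 and 2769.8 normalized counts in WT mice. It had 2777, 2869.9, 2547 and 2705 in HT mice, and 2590.0, 2921, 2570.2 and 2724 in HM mice. The genotypes lay within each other's ranges almost throughout. Relative to WT, the difference of Grik2 on the log2 scale was -0.02 in HT (interval -0.12 to 0.09) and -0.03 in HM (interval -0.14 to 0.09), or -0.05 and -0.06 without WT1.

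The high-affinity subunits did not pass the test either. Grik4 had 922, 1008, 1057 and 1016 normalized counts for WT, 1022, 1009, 1130.5 and 1013 for HT, and 928, 995, 997 and 966 for HM. All 4 HM values lay below all 4 HT values, while WT overlapped with both. Differences of Grik4 on the log2 scale were 0.06 in HT against WT (interval -0.07 to 0.19), -0.04 in HM against WT (interval -0.16 to 0.08) and -0.10 in HM against HT (SE 0.05, interval -0.22 to 0.01, limma unadjusted p = 0.0754, adjusted p = 1.00). Without WT1, Grik4 differed from WT by 0.02 in HT and by -0.08 in HM. The summed olfactory bulb and microglial markers were also without overlap between these genotypes, and their part in the Grik4 values was not tested.

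Grik5, with the highest level per length of these genes, overlapped between all genotypes. It had 7779, 7529, 7580.3 and 7277 normalized counts in WT mice, 7384, 7579, 7658 and 7442 in HT mice, and 7190.4, 7314, 7758 and 7598 in HM mice. Grik5 had log2 fold changes of -0.0047 in HT (interval -0.08 to 0.07) and -0.01 in HM (interval -0.10 to 0.07). In percent, the interval was -5.59 to 5.23 for HT and -6.49 to 4.75 for HM. Without WT1 the values of Grik5 were 0.010 in HT and 0.00011 in HM on the log2 scale.

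**Figure D2:**
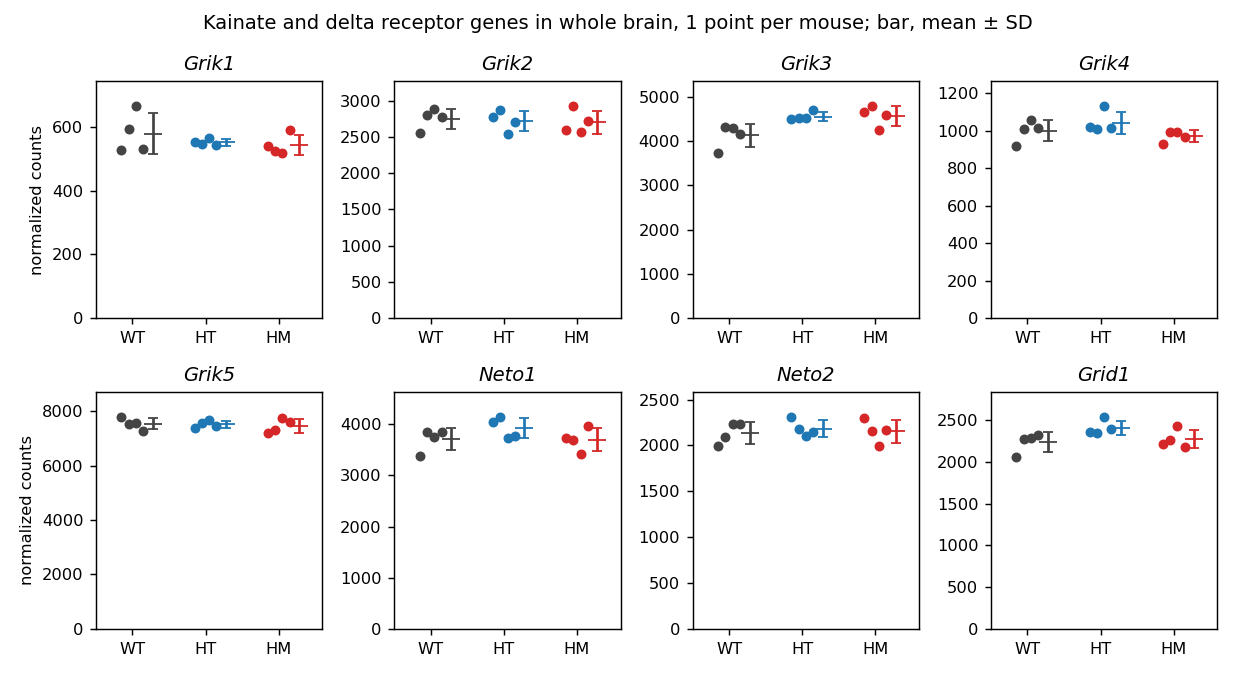
Normalized counts (y axis, from 0) of the 8 receptor genes in WT, HT and HM mice, with 1 point per mouse and the mean ± SD beside each group. The 4 HT mice lie above the 4 WT mice for Grik3 (4496 to 4699 against 3741 to 4312) and Grid1 (2351 to 2538 against 2057 to 2319.6).

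The auxiliary proteins showed no difference past the threshold. Neto1, which is known from its association with both kainate and NMDA receptors, had 3387, 3844, 3747 and 3845 normalized counts for WT, 4051, 4139.9, 3737 and 3779 for HT, and 3725, 3702, 3414 and 3963 for HM. The first pair of HT mice was above every WT and HM mouse, and the other HT mice were not. Neto1 had a log2 fold change of 0.08 in HT (SE 0.05, limma unadjusted p = 0.129) and -0.0020 in HM against WT, which were 0.04 and -0.04 without WT1. Neto2 had 1992, 2092, 2232 and 2238 normalized counts for WT, 2308, 2175, 2104 and 2150.2 for HT, and 2294, 2154, 1991 and 2172 for HM. Its genotypes overlapped, with log2 fold changes of 0.03 in HT (interval -0.08 to 0.14) and 0.01 in HM (interval -0.11 to 0.13), or -0.0021 and -0.02 without WT1.

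Grid1, a delta subunit that is widespread in the forebrain, had 2057, 2271, 2293 and 2319.6 normalized counts in WT mice. HT mice had 2365, 2351, 2538 and 2391, all above the WT mice. HM mice had 2221, 2269.9, 2435 and 2179.5, within the range of WT except for the third. The log2 fold change of Grid1 in HT was 0.11 (SE 0.05, interval 0.0027 to 0.22, limma unadjusted p = 0.0452, BH-adjusted p = 0.770), and in HM against WT it was 0.03 (interval -0.09 to 0.14). Without WT1 the remaining WT mice averaged 2295 ± 24.1 (n = 3), and the difference was 0.07 in HT (limma unadjusted p = 0.132) and -0.01 in HM. The part of the erythrocyte markers in the Grid1 values of HT mice was not tested. Within number starts Grid1 differed from WT by 0.05 (HT, start 276), 0.09 (HT, start 278), 0.24 (HM, start 274) and -0.06 (HM, start 276) on the log2 scale. The value of start 274 is HM3 against WT1. HM mice differed from HT mice in Grid1 by -0.08 on the log2 scale (interval -0.18 to 0.01).

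In HT against WT, 0 of the 8 genes passed the adjusted threshold (limma, BH), beside 0.00555% of all 18004 genes tested. With an unadjusted p under 0.05 there were 2, Grik3 and Grid1, beside 6.42% of all genes, and the same 2 genes were without overlap between the groups, beside 3.73%. In HM against WT, 0 of the 8 passed, beside 0.0111% of all genes. Grik3 alone had an unadjusted p under 0.05, beside 6.99%, and none of the 8 was without overlap, beside 4.22%. In HM against HT, 0 passed (beside 0.00556%), 0 had an unadjusted p under 0.05 (beside 3.74%), and Grik4 alone was without overlap (beside 2.38%). The median log2 fold change over the 8 genes was 0.05 in HT against WT, -0.0085 in HM against WT and -0.02 in HM against HT, where the medians over all genes were 5.1e-05, -0.00029 and -0.00086. Over the 8 genes, the 95% intervals reached from -14.7% to 18.8% in HT and from -16.8% to 19.9% in HM against WT.

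**Figure D3:**
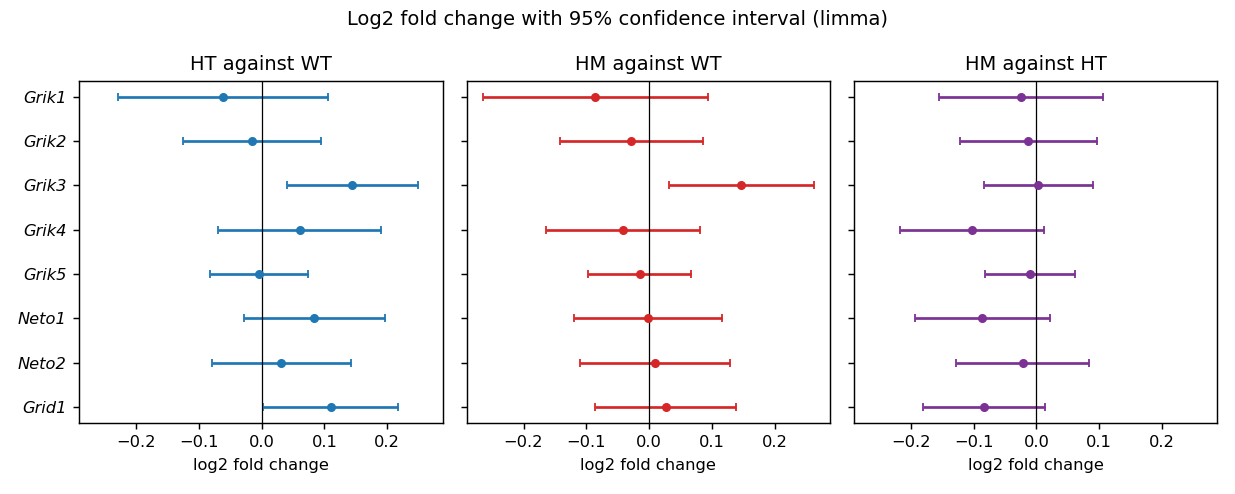
Log2 fold change of each receptor gene (x axis) with its 95% confidence interval from limma, in a panel for each comparison. Only the intervals of Grik3 in both comparisons with WT and of Grid1 in HT against WT exclude 0, before any adjustment for the number of genes tested.

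The make-up of the receptor pool was compared through shares per length, with the longest coding transcript as the length. Of the summed per-length level of Grik1 to Grik5, Grik5 made up 65.0% for WT, 64.0% for HT and 64.1% for HM. Grik3 made up 14.9% for WT, 16.3% for HT and 16.5% for HM, and Grik2 9.47%, 9.26% and 9.26%. Grik4 made up 5.51%, 5.68% and 5.33%, and Grik1 5.12%, 4.84% and 4.81% in the same order. These shares depended on the length used. With the median transcript length, the mean of Grik2 was 862 per kb in place of 289, and that of Grik5 stayed at 1995. The share of Grik2 would then be higher and that of Grik5 lower. The high-affinity genes Grik4 and Grik5 together held 70.5% ± 1.53 for WT, 69.6% ± 0.651 for HT and 69.5% ± 1.48 for HM (SD, n = 4). The two-sided exact permutation test of this share gave p = 0.429 for HT and 0.371 for HM when set against WT, and 0.83 when the mutants were set against each other. WT1 had the highest share of the 12 mice, 72.8%. The difference from WT was -0.852 percentage points in HT and -1.03 in HM, and without WT1 it was -0.0992 and -0.280. With the median transcript length and all mice it was -0.472 in HT and -0.652 in HM. The log2 ratio of Neto1 to Neto2 per length was 0.22 ± 0.06 for WT, 0.27 ± 0.06 for HT and 0.21 ± 0.07 for HM, with exact permutation p of 0.314 for HT and 0.886 for HM against WT. Without WT1 the ratio differed from WT by 0.04 in HT and by -0.02 in HM. All 6 of these tests had a BH-adjusted p of at least 0.643. These shares are of RNA, and subunit protein was not measured.

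Mice also differed within a genotype, and some members varied together. With genotype means removed, the log2 values of Grik4 and Grid1 correlated over the 12 mice with Pearson's r = 0.832 (permutation p = 0.00083, BH-adjusted p = 0.0232 over 28 pairs) and Spearman's rho = 0.853 (permutation p = 0.00061, adjusted p = 0.0171). With the 2 most extreme mice for the first gene of the pair left out, r was 0.686. Grik5 and Neto2 varied in opposite directions, with r = -0.811 (permutation p = 0.00166, adjusted p = 0.0232) and rho = -0.797 (permutation p = 0.00288, adjusted p = 0.0403). With such a pair of mice left out, r was -0.714. No other pair passed the adjusted threshold, and 8 of the 28 had an unadjusted permutation p under 0.05 for r. The permutations shuffled all 12 centred values freely, with no allowance for the genotype means removed, so these p-values are too small. Whether either pair would pass the threshold with that allowance was not tested. Neto1 and Neto2 had an r of 0.705 (adjusted permutation p = 0.0944), which was 0.351 without 2 mice. Of the 28 values of r, 21 were positive, with a median of 0.183. Values of 1 mouse share its library and its dissection, and the part of these in the correlations was not tested. A number start held 2 to 4 mice, too few for a correlation within it. Only genotype means were removed, and the part of the number start in the correlations was not tested. WT1 and HM3, both of start 274, each had the highest Grik5 and the lowest Neto2 of their genotype.

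**Figure D4:**
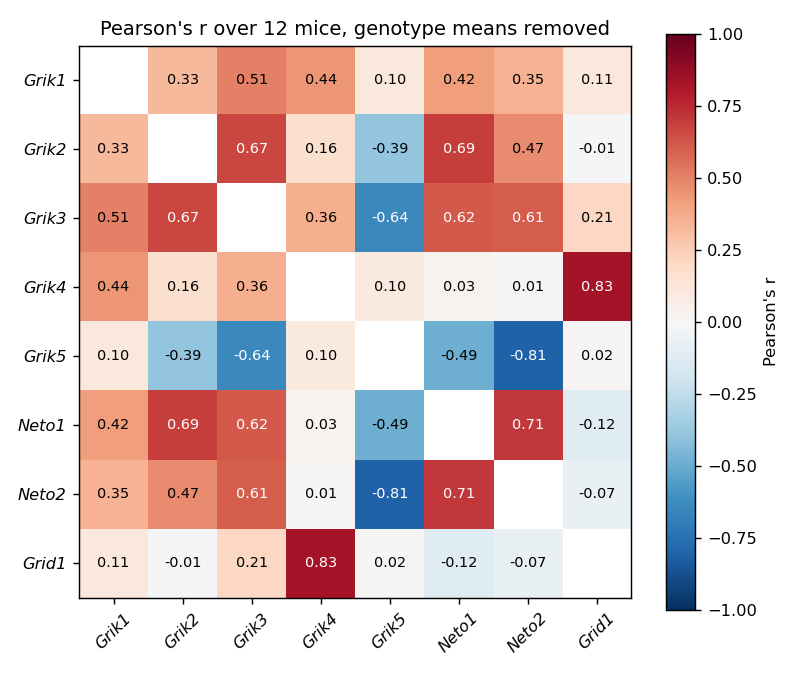
Pearson's r between the receptor genes over 12 mice, after subtraction of the genotype mean of log2(normalized count + 1), with colour from -1 to 1. Grik4 with Grid1 (0.832) and Grik5 with Neto2 (-0.811) are the pairs past the adjusted threshold. The permutation p-values behind it made no allowance for the means removed and are too small. Grik5 is negative with Grik2, Grik3, Neto1 and Neto2.

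The genes whose values followed each member most closely were taken from the 13125 genes whose mean reached 100 normalized counts, by r over the 12 mice with genotype means removed. For Grik3 these were Irs1 (r = 0.966), an adaptor of the insulin receptor, and Aff3 (0.955), a nuclear factor of transcription. For Grik1 they were Cdkl4 (0.958) and Prkg1 (0.902), a cGMP-dependent kinase, and for Grik2 Gm43843 (0.933) and Ttc39b (0.917). For Grik4 they were Dnah9 (0.928), an axonemal dynein, and Etnppl (0.920), an astrocyte enzyme. Dnah9 (0.924) came second for Grid1 after Phactr2 (0.943). Grik5 was followed by Ramp2 (0.947) and Arhgef4 (0.910), Neto1 by Ubxn2a (0.917) and Zfp939 (0.907), and Neto2 by Mtmr9 (0.957) and Emd (0.935), which encodes emerin of the nuclear envelope. These are the highest of many values of r from few mice, so they are given as a description with no test.

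Partners of the receptors were taken as a list of ligands, scaffolds and modifying enzymes, of which 24 of 25 were analysed and Klhl17 was not analysed here. In HT against WT, 0 of the 24 passed the adjusted threshold (limma, BH), and 2 had an unadjusted p under 0.05, both higher, beside 3.16% of all genes in that direction. In HM against WT, 0 passed and 3 had an unadjusted p under 0.05, all higher, beside 3.93%. In HM against HT, 0 passed and 1 had an unadjusted p under 0.05, with a lower value, beside 1.62%. The log2 fold change was positive for 17 and negative for 7 of the 24 in each of the comparisons. The median over the 24 was 0.03 in HT and 0.06 in HM relative to WT, and 0.02 in HM relative to HT.

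C1ql3 encodes a secreted C1q-like protein, a family of which some members recruit kainate receptors to mossy fibre synapses. Its mean was 1879.8 ± 119 normalized counts for the WT and 2063 ± 75.6 for the HT group (log2 fold change 0.14, SE 0.05, limma unadjusted p = 0.0241, adjusted p = 0.770). The groups overlapped by 1 pair of values, 2002 in WT3 and 1988 in HT4. Adgrb3, an adhesion receptor for C1q-like proteins, had 3023, 3029, 2973 and 2698 normalized counts in WT and 3191, 3193, 3151 and 3234 in HM mice. The HM mice were all higher and close together, and the log2 fold change of Adgrb3 was 0.12 (SE 0.04, limma unadjusted p = 0.0156, adjusted p = 0.664). In HT it was 0.10 (unadjusted p = 0.0705, adjusted p = 0.783, limma). Without WT1 the values of Adgrb3 were 0.14 in HM and 0.11 in HT, and C1ql3 in HT had 0.15. With a block for the start of the animal number Adgrb3 in HM had 0.08 (limma unadjusted p = 0.231). Cbln2 (log2 fold change -0.05 in HT) and Cbln3 (-0.17 in HM) were the ligands among the lower values by the smallest p. Cbln3, a cerebellar granule cell product, averaged 19.3 ± 5.16 normalized counts in WT, and its interval in HM reached from -0.82 to 0.47. Without WT1 these values were -0.04 for Cbln2 and -0.24 for Cbln3, and with the animal number block Cbln3 in HM was 0.51.

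Of the intracellular scaffolds, Grip1, a PDZ protein that binds AMPA and kainate subunits, had 679, 746, 700.1 and 705 normalized counts in WT and 779.98, 774, 785 and 772 in HM mice. All HM mice were higher than all WT mice, and the log2 fold change of Grip1 was 0.14 (SE 0.05, limma unadjusted p = 0.0256, adjusted p = 0.670). Without WT1 it was 0.12 (limma unadjusted p = 0.0547). Grid2ip, the delphilin scaffold of the cerebellar delta subunit, had 421, 474, 347 and 461 normalized counts in HT and 377, 334, 319.98 and 374 in HM mice. HM mice differed from HT mice in Grid2ip by -0.27 on the log2 scale (SE 0.10, limma unadjusted p = 0.0198, adjusted p = 1.00), and against WT it was 0.19 in HT and -0.08 in HM. WT1 held the lowest Grid2ip value of all mice, 269 normalized counts. Without it the WT mean was 413 ± 28.7 (n = 3), and Grid2ip differed from WT by 0.04 in HT and by -0.23 in HM (limma unadjusted p = 0.0227). With the animal number block and all mice, Grid2ip differed from WT by 0.02 in HT and by 0.08 in HM, so its direction in HM turned. In HM against HT, the scaffold Dlg1 differed by -0.03 and Grip1 by 0.08 (limma unadjusted p = 0.129) on the log2 scale. With the animal number block Grip1 differed by 0.025.

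Of the modifying proteins, Cul3, part of a ubiquitin ligase that acts on kainate subunits, had log2 fold changes of -0.04 in HT against WT (-0.0075 without WT1) and 0.09 in HM against HT (limma unadjusted p = 0.0867).

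**Figure D5:**
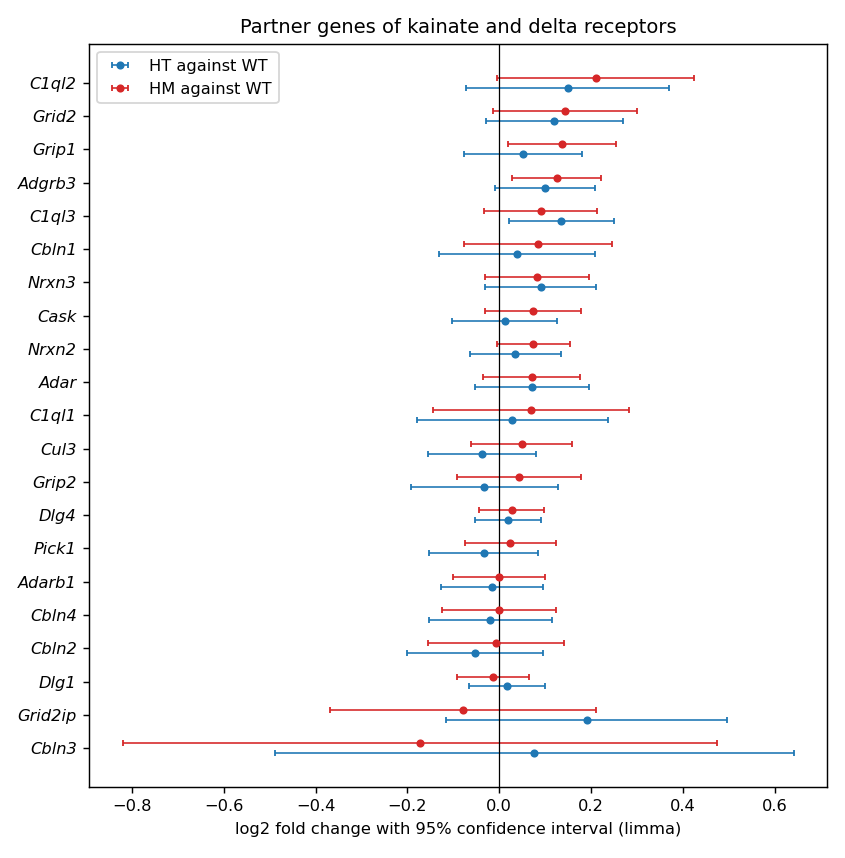
Log2 fold change (x axis) with 95% confidence interval from limma for 21 of the partner genes, HT against WT in blue and HM against WT in red, ordered by the HM value. The intervals of Adgrb3 (0.12) and Grip1 (0.14) in HM and of C1ql3 (0.14) in HT lie above 0, and the widest intervals are those of Cbln3.

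The AMPA and NMDA receptor families served as comparators. All 4 AMPA subunit genes had positive log2 fold changes in HT and in HM against WT, with medians of 0.05 and 0.06, and 0 passed the adjusted threshold (limma, BH). An unadjusted p under 0.05 was found for 1 AMPA gene in each comparison, beside 6.42% of all genes in HT and 6.99% in HM. The 7 NMDA subunit genes had a median of 0.04 in HT and 0.04 in HM against WT, again with 0 past the adjusted threshold and 1 with an unadjusted p under 0.05 in each, beside the same shares of all genes. Whether the kainate and delta genes differed from these families was not tested.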

How the data were processed

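RNA from the whole brain of 12 mice was sequenced by the authors after poly-A selection. Per the labels they used Salmon 1.1.0, R 4.1.1 and DESeq2 1.30.1 on GRCm38, and the methods name a GC bias correction and tximport. The deposited table holds a signal per gene and mouse, read counts divided by size factors, called normalized counts. It has no columns of comparisons, and all columns were matched to mice. At most 50.4% of the low values of a mouse lay within 0.05 of a whole multiple of a read, so reads were not recovered and the count model of the study was not fitted. No mice had identical values. Symbols and lengths came from GENCODE M21, where 19758 of the 19775 identifiers were found.

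For each pair of genotypes, limma 3.58.1 (R 4.3.3) with a trended variance prior was fitted to log2(normalized count + 1) of the 8 mice. Genes averaging under 10 were left out, and p-values were BH-adjusted over those kept (18004 genes, 17986 for HM against HT). A fold change on this scale understates the change of low genes. The test was tested on simulated data. Shares and ratios had two-sided exact permutation tests and correlations 100000 permutations, in Python 3.11.15 with numpy 2.4.6, scipy 1.17.1 and pandas 2.3.3. Each mouse is a separate animal. The members and lists were chosen with earlier results of these data known. Named were all 8 receptor genes, and of the 24 partner genes the 3 with the smallest unadjusted p in each direction and comparison, with the 2 genes of highest r for each member. Klhl17 and a pituitary list were not analysed here, and 3 partner genes enter the counts but are not reported here by name. Alternatives were a pseudocount of 0.1, other filters, a fit of all 12 mice, blocks for replicate number or animal number, quantile normalization, no variance trend, other lengths (the median length was chosen after seeing the data) and leaving out each mouse.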

Additional observations from a re-analysis of the deposited data

Results flagged for a closer look

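In 3 of the 30 sets of 4 mice checked, a mouse lay far from the others by Dixon's criterion, which chance meets in about 1 of 20 sets. Grik3 in HT had its highest value of 4699 normalized counts in the fourth mouse, with the other HT mice between 4496 and 4516. Grik4 in HT had its highest value of 1130.5 normalized counts in the third mouse, with the others between 1009 and 1022. The log2 ratio of Neto1 to Neto2 per length in HT was highest in the second mouse, at 0.35, with the others between 0.24 and 0.25. The cause of these gaps was not tested.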

How the results depend on the processing

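The number of receptor genes and of partner genes past the adjusted threshold was 0 in each comparison under every alternative run (limma), also with each mouse left out in turn, and the lowest adjusted p of a receptor gene over all of them was 0.519. Of the 24 fold changes, 10 kept their sign under all alternatives, among them Grik3 in HT and in HM against WT. The animal number block turned 7: Grik5 to 0.010 and Neto2 to -0.0033 in HT against WT, Grik4 to 0.026, Grik5 to 0.0046 and Neto1 to 0.028 in HM against WT, and Grik1 to 0.10 and Grik5 to 0.022 in HM against HT. A number start found in just 1 of the genotypes adds nothing to a fold change under that block. Grid1 in HT lost its unadjusted p under 0.05 with this block (0.0991), quantile normalization (0.0612) or no variance trend (0.0781, all limma), and without WT1, WT2, HT1, HT3 or HT4. Grik3 in HM had an unadjusted p of 0.0530 (limma) without HM2. In HM against HT, Grid1 had an unadjusted p of 0.0191 without HM3 and Neto1 of 0.0339 without HM4 (limma). The animal number block also moved values that kept their sign. In HT against WT it gave Grik1 -0.10, Grik2 -0.060, Grik4 0.032 and Neto1 0.028. In HM against WT it gave Grik1 -0.018, Neto2 0.027 and Grid1 0.092. In HM against HT it gave Grik2 -0.051, Grik3 0.027, Neto1 -0.047 and Neto2 -0.045. Over 16 alternatives, the unadjusted p stayed under 0.05 in 13 for C1ql3 in HT (highest 0.0892), 14 for Adgrb3 in HM (0.231), 11 for Grip1 in HM (0.139) and 11 for Grid2ip in HM against HT (0.171, all limma).

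Leaving out each mouse in turn gave, for HT against WT, Grik1 -0.10 to 0.0070, Grik2 -0.050 to 0.017, Grik3 0.10 to 0.17, Grik4 0.022 to 0.087, Grik5 -0.022 to 0.010, Neto1 0.041 to 0.11, Neto2 -0.0021 to 0.054 and Grid1 0.07 to 0.13. For HM against WT it gave Grik1 -0.13 to -0.017, Grik2 -0.066 to -0.0048, Grik3 0.10 to 0.18, Grik4 -0.081 to -0.015, Grik5 -0.034 to 0.0028, Neto1 -0.045 to 0.036, Neto2 -0.024 to 0.046 and Grid1 -0.013 to 0.047. For HM against HT it gave Grik1 -0.064 to -0.0015, Grik2 -0.051 to 0.013, Grik3 -0.020 to 0.037, Grik4 -0.12 to -0.063, Grik5 -0.029 to 0.0075, Neto1 -0.12 to -0.048, Neto2 -0.053 to 0.015 and Grid1 -0.12 to -0.059. The difference in the share of Grik4 and Grik5 ran from -1.21 to -0.0992 percentage points for HT against WT, -1.73 to -0.280 for HM against WT and -0.873 to 0.252 for HM against HT, and that of the log2 ratio of Neto1 to Neto2 for HM against WT from -0.040 to 0.017. The cause of these shifts was not tested.

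Replicate numbers of the labels did not pair the mice: deviations of same-numbered mice correlated between -0.08 and 0.10, and 0 of 4 pairs were over 0.1 in any comparison. With the replicate block 0 receptor genes were called, the lowest adjusted p of a receptor gene was 0.755 (limma), and 0 of the 24 fold changes turned.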
